A study of Mus musculus with 23 samples.

Results

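Cathepsins are the main proteases of the lysosome, the acidic compartment in which cells break down proteins that they have taken up or no longer need. Most belong to the papain family of cysteine proteases, whereas cathepsins D and E are aspartic proteases. They are made as inactive precursors, reach the lysosome largely through mannose 6-phosphate receptors, and are held in check outside it by cystatins. In brain, cathepsin S is known as an enzyme of microglia and macrophages, the resident phagocytes, while cathepsins B, D and L are made by neurons and glia alike.

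The 9 cathepsin genes Ctss, Ctsz, Ctsb, Ctsd, Ctsl, Ctsh, Ctsc, Ctsk and Ctse were taken by symbol from the platform annotation of the array. All 9 were represented, by 16 probe sets of the 12488 on the array. Ctsb had 4 probe sets, Ctsc and Ctse had 3 each, and the other members had 1 each. RNA of whole hippocampi was measured on 1 array per animal in 23 C57BL/6JNIA mice, all male, of which 14 were 15 months old and 9 were 2 months old. Mice of both ages had gone through Morris water maze training, which tests spatial memory, so no untrained animals enter the comparison, and no genotype or drug separated the groups. The comparison asks how hippocampal transcripts differ between middle-aged and young mice.

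The values were MAS5 signals, a brightness per probe set on a linear scale, and signals of different probe sets cannot be set against each other as amounts of RNA. Array medians lay between 154.3 and 187.7. One array was unlike the rest, that of 15-month replicate 13, whose correlation with others had a median of 0.944. Probe sets of Snap25 and Gad1 (neurons), Wfs1 and Neurod6 (hippocampal pyramidal cells), Csf1r and Cx3cr1 (microglia) and Mbp (myelin) all passed the filter on brightness. That was so for 6 of 7 hippocampal field markers on the array, the dim one being Prox1 of dentate granule cells. Choroid plexus, a neighbouring tissue, was unevenly present: the mean log2 level of its 3 tested markers ran from 7.00 to 10.79 at 15 months and from 6.44 to 10.65 at 2 months. Since whole tissue was used, a different number of cells of one type and a different amount of RNA per cell cannot be told apart.

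Of the 16 cathepsin probe sets 11 passed the filter on brightness and were tested, standing for 8 genes. The 5 dim ones were the 3 of Ctsc, 1 of Ctsb and 1 of Ctse. Among the tested are 2 probe sets of Ctse designed from another source sequence than its dim one. Whether these 2 report cathepsin E was not tested. Without them 9 probe sets of 7 genes remain, with a median log2 change of 0.05 and 8 changes above 0. Among the 11, only Ctss was called at a false discovery rate of 0.05 in the limma test across 7453 probe sets, of which 0.376% were called and 0.335% were called higher at 15 months. At an unadjusted p under 0.05, 2 of the 11 passed, Ctss and Ctsz, where 12.4% of all tested probe sets did. The median log2 change of the 11 was 0.04, against -0.02 for all 7453, and 9 of the 11 had changes above 0, against 45% of all. The members were chosen with earlier results of these data known.

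The letters just before the transcript start are shown for 4 members. They are those of Ctss, which was called, of Ctsz, which came next, of Ctsk, which lies beside Ctss on chromosome 3 and was not called, and of Ctsd, which holds motifs of lysosomal genes. Each is the 250 bases before the RefSeq start on GRCm38.p6, read 5′ to 3′ on the strand of the gene, and capitals mark a motif. The coordinates are chr3:95526536-95526785 on the plus strand for Ctss, chr2:174439040-174439289 on the minus strand for Ctsz, chr3:95498960-95499209 on the plus strand for Ctsk and chr7:142387828-142388077 on the minus strand for Ctsd.
Ctss: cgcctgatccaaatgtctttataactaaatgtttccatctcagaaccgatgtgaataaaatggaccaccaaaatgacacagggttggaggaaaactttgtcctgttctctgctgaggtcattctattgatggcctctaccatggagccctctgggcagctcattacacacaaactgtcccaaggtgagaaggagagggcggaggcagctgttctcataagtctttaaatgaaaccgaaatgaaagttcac
Ctsz: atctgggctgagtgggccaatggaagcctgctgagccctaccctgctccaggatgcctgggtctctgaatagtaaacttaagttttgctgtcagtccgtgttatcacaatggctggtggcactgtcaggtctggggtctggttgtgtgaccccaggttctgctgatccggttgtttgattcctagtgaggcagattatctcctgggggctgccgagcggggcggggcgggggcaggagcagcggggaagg
Ctsk: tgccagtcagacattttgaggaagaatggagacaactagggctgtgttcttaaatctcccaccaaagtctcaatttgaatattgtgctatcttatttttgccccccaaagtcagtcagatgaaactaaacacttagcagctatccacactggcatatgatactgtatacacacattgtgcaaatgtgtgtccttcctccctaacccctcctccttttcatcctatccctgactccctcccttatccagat
Ctsd: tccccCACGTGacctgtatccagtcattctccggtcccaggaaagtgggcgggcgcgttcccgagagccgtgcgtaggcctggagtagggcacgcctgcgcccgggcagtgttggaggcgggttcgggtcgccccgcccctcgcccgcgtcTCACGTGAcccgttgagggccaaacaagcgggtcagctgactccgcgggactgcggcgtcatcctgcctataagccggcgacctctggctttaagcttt

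The RefSeq table held such a stretch for 6 of the 9 members, the other 2 being those of Ctsl and Ctsc. Both strands were searched for 3 motifs in these 6 and in 27025 genes with a stretch of that length. The E-box CACGTG was in 6.05% of all, and in Ctsd at positions -245 and -98 and Ctsl at position -236. The longer palindrome TCACGTGA, the core of the element that the transcription factor TFEB binds in lysosomal genes, was in 0.803% of all and in Ctsd at position -99, where it contains the second E-box. The word GAGGAAGT of sites for PU.1, a transcription factor of myeloid cells, was in 2.44% of all and in Ctsc at position -151. None of the 3 words was in the stretches of Ctss, Ctsz and Ctsk. A match is a description of letters, and positions count back from the start, with -1 as the base before it.

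Ctss encodes cathepsin S, a cysteine protease that cleaves the invariant chain of MHC class II molecules and stays active at neutral pH. Its signals (probe set 98543_at) had a lowest value of 2054.7, a median of 2391 and a highest of 2777 in the mice of 15 months, against 1469.8, 1706.1 and 1976.9 in those of 2 months. Every 15-month mouse lay above every 2-month mouse, which held for 1 of the 11 cathepsin probe sets and for 0.0537% of all tested. The mean was 2443 ± 218.5 at 15 months (SD, n = 14) and 1725 ± 152.8 at 2 months (SD, n = 9), a log2 change of 0.50 ± 0.06 (SE; limma adjusted p = 9.34e-06) or 1.41-fold. Only 1 of the 7453 probe sets had a lower p. The scatter between mice of one age was small beside this gap, with a coefficient of variation of 8.94% at 15 months and 8.85% at 2 months. The lowest 15-month mouse was replicate 13, whose array was unlike the rest, and the call held without it and without each of the other mice in turn (log2 change 0.47 to 0.52, adjusted p up to 5e-05).

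**Figure D1:**
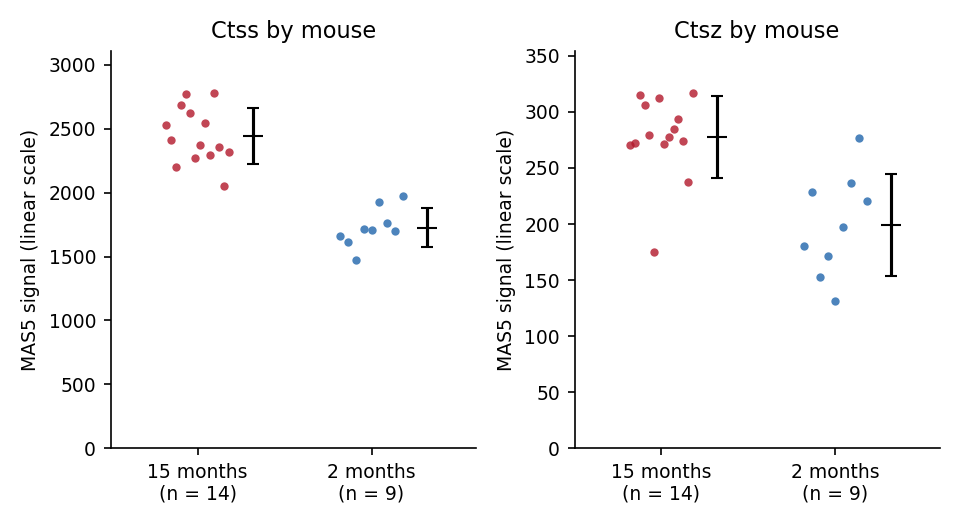
MAS5 signal of Ctss and of Ctsz on a linear scale, 1 point per mouse, with mean and SD as bars, for 14 mice of 15 months and 9 mice of 2 months. The 15-month points of Ctss lie between 2054.7 and 2777, all above the highest 2-month point of 1976.9, whereas 6 of the 14 points of Ctsz at 15 months lie below the highest 2-month point of 276.8, the lowest of them at 174.9.

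Ctsz encodes cathepsin Z, also called cathepsin X, a carboxypeptidase that removes single residues from the end of proteins and is known in microglia and macrophages. Its signals (92633_at) had a lowest value of 174.9, a median of 278.5 and a highest of 316.6 at 15 months, against 130.9, 197 and 276.8 at 2 months. The groups overlapped: 8 of the 14 mice of 15 months lay above all 2-month mice, and 13 of 14 lay above the 2-month mean. The low 15-month mouse was replicate 6, with the next lowest at 237.2, and the high 2-month mouse was replicate 8, with the next highest at 236.7. The mean was 277.5 ± 36.8 at 15 months (SD, n = 14) and 199.4 ± 45.6 at 2 months (SD, n = 9), with a log2 difference of 0.46 ± 0.11 (SE; 95% interval 0.24 to 0.69). With a limma adjusted p of 0.0508 it did not pass, although its estimate was close to that of Ctss, and its p was the 29th lowest of all. Of the probe sets that were not called it had the lowest p. Ctsz passed in 5 of the 23 fits that left out 1 mouse (limma adjusted p 0.0114 to 0.132 over the 23). Among the 5 were the fits without 15-month replicate 6 (adjusted p = 0.0114) and without 2-month replicate 8 (0.0156). Leaving out either of these extreme mice widens the gap between the groups by itself. It also passed in 7 of 11 other settings of processing, model or arrays used.

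The remaining 9 tested probe sets, of 6 genes, had log2 differences between -0.04 and 0.13 and limma adjusted p between 0.514 and 0.982. Their 95% intervals ran at most from -0.30 to 0.34 and the precision differed between probe sets. The lower limit was that of Ctsk and the upper that of Ctsh, 2 of the dimmer genes, whereas the interval of the brightest Ctsb probe set ran from -0.06 to 0.15.

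Ctsb encodes cathepsin B, an abundant cysteine protease with both endopeptidase and peptidyl-dipeptidase activity. Its brightest probe set (94831_at) had a lowest signal of 4401.6, a median of 5151.9 and a highest of 5718 at 15 months, against 4233.2, 5044 and 5402.4 at 2 months. The groups overlapped almost entirely, with a log2 difference of 0.04 (95% interval -0.06 to 0.15, adjusted p = 0.773). The other tested probe sets gave means of 509.2 ± 50.1 at 15 months and 467.9 ± 69.1 at 2 months for 95608_at, and of 494.6 ± 61.6 at 15 months and 490.1 ± 51.3 at 2 months for 92256_at. Neither passed, with log2 differences of 0.13 and 0.01. The dim probe set 162271_f_at, whose suffix marks probes that other sequences can share, was at 18.5 or below in all mice of 15 months, and at 2 months had a median of 17.9 and a highest of 101.5. The 2-month values that stood out were replicate 6, at 101.5, and replicate 1, at 66.5. In the fit without a filter on brightness its log2 difference was -0.55 (adjusted p = 0.389), opposite in sign to those of the brighter probe sets.

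Ctsl and Ctsh encode cathepsin L, a cysteine endopeptidase, and cathepsin H, an aminopeptidase of the same family. The signal of Ctsl had a lowest value of 665.5, a median of 786.2 and a highest of 931.9 at 15 months, against 657.4, 767.2 and 890.9 at 2 months. The log2 difference was 0.04 (95% interval -0.10 to 0.19, adjusted p = 0.824). Ctsh was dimmer and more scattered, with 100.5, 156.2 and 235.6 at 15 months as lowest, median and highest, against 105.1, 151.8 and 198.2 at 2 months. Its difference was 0.06 (95% interval -0.23 to 0.34, adjusted p = 0.889). For both genes the ranges of the ages overlapped over most of their length.

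Ctsk encodes cathepsin K, the collagen-degrading protease of osteoclasts, which fibroblasts also make. Its gene is the direct neighbour of Ctss among protein-coding genes of the RefSeq table. The signal of Ctsk was at 146.5 ± 36.4 at 15 months and 147.6 ± 23.9 at 2 months, with a log2 difference of -0.03 (95% interval -0.30 to 0.23, adjusted p = 0.937). Its interval lies below the estimate for Ctss, and the difference between the changes of these neighbours was not tested. The widest 15-month values, 78.7 and 212.8, belonged to replicates 10 and 13.

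Ctsc encodes cathepsin C, also called dipeptidyl peptidase 1, which activates serine proteases of immune cells. Its 3 probe sets were too dim to be tested, with means at 15 months of 60.2 ± 22.2, 53.8 ± 20.8 and 18.9 ± 14.5 against 63.3 ± 19.9, 46.2 ± 12.2 and 18.6 ± 12.9 at 2 months. In the fit without a filter their log2 differences were -0.07, 0.11 and -0.01, none of which passed (adjusted p 0.917 to 0.993). The 95% intervals of these differences were -0.42 to 0.28, -0.31 to 0.52 and -0.47 to 0.44, wide enough to hold a change of the size seen for Ctss in the second of them.

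Among the aspartic proteases, Ctsd encodes cathepsin D, the major one of the lysosome. Its signal had a lowest value of 2726.1, a median of 3776.8 and a highest of 5219 at 15 months, against 3109, 3749.8 and 4589.3 at 2 months. The medians lay close together while the older mice reached farther in both directions, with 4 of them above and 2 below all 2-month mice. A range over 14 mice tends to be wider than one over 9. Replicates 1 to 5 of 15 months lay between 2726.1 and 3321.5, and of the later replicates only replicate 10, at 3219.8, was that low. Any link of the spread to the order of the mice was not tested. The log2 difference was 0.05 (95% interval -0.16 to 0.27, adjusted p = 0.863). The coefficient of variation was 21.5% at 15 months and 12.7% at 2 months, a difference in spread that was not tested.

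Ctse encodes cathepsin E, an endosomal aspartic protease of immune and epithelial cells, and its 3 probe sets differed in kind. The probe set 104696_at was dim, with a median of 26.8 and a highest of 103.7 at 15 months, against 32.8 and 75.8 at 2 months, and was not tested. The probe sets 93860_i_at and 93861_f_at were designed from another source sequence than the dim one. The suffix of 93861_f_at marks probes that other sequences can share. The pair had means of 572.9 ± 99.5 and 553.2 ± 43.5 at 15 months, against 594.2 ± 138.1 and 552.9 ± 66.2 at 2 months. Neither differed past the test (log2 difference -0.04 and 0.01, adjusted p = 0.919 and 0.982). Which transcripts the bright pair reports was not tested, so no level of Ctse is drawn from it.

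**Figure D2:**
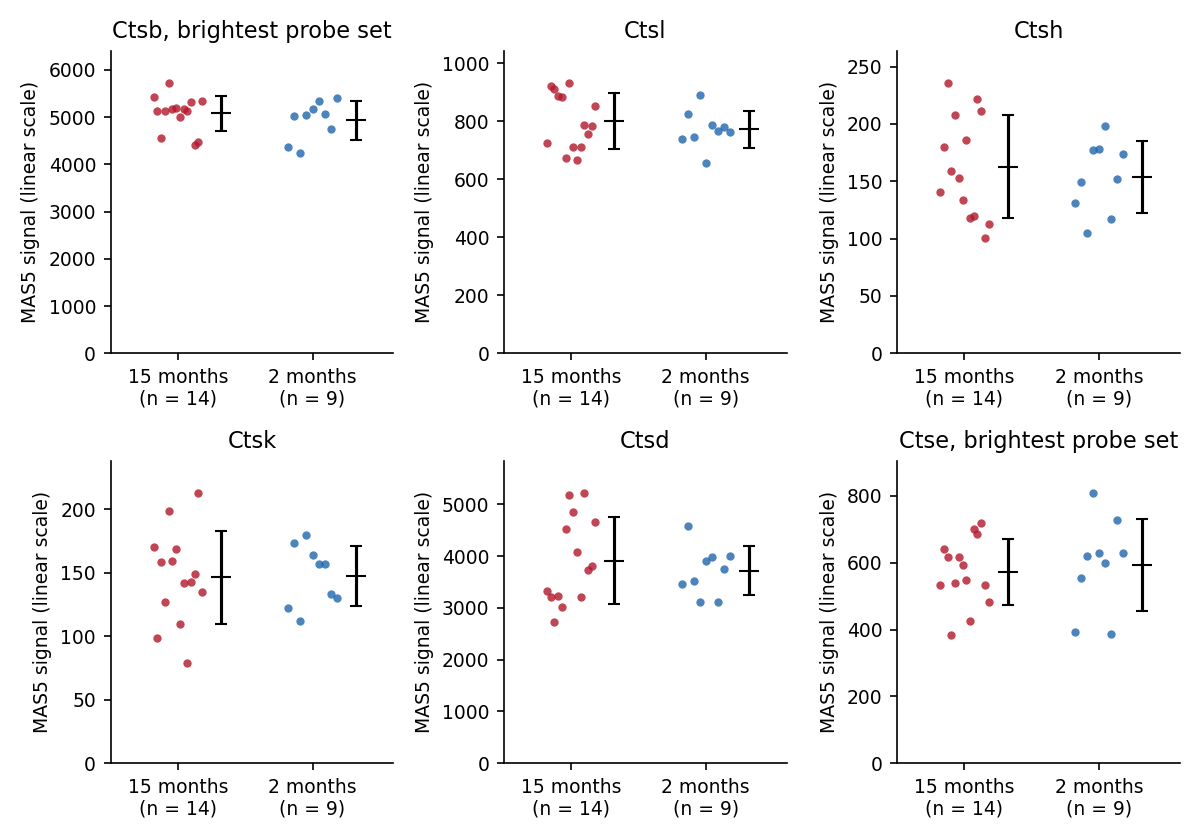
MAS5 signal of 6 cathepsin genes by age on a linear scale, 1 point per mouse (14 of 15 months, 9 of 2 months), with mean and SD as bars and 1 probe set per gene. The ages overlap in every panel, and Ctsd reaches from 2726.1 to 5219 at 15 months against 3109 to 4589.3 at 2 months. The Ctse panel shows 93860_i_at, whose target was not tested, and no level of Ctse is drawn from it.

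**Figure D3:**
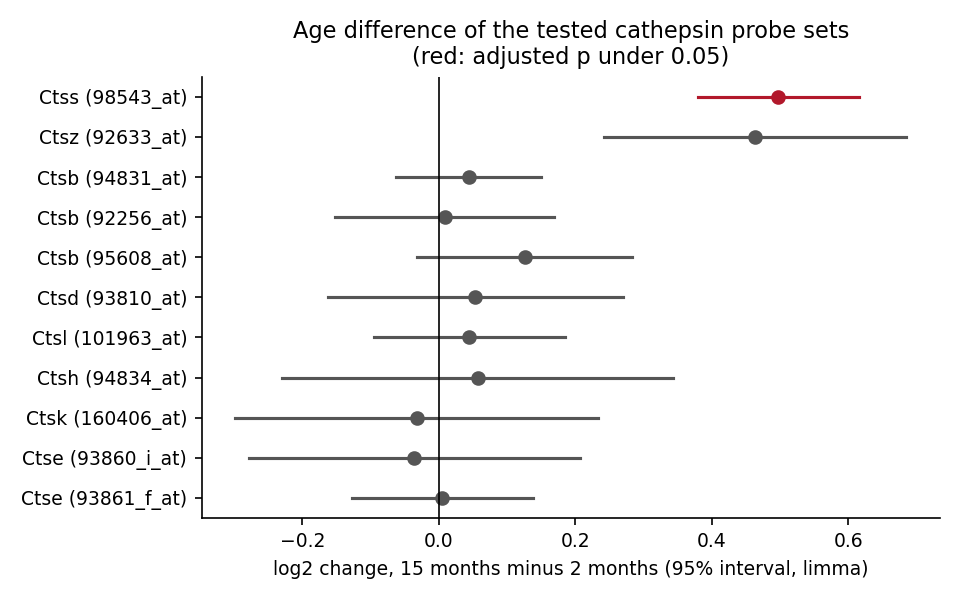
Log2 change, 15 months minus 2 months, with 95% intervals of the limma fit for the 11 tested cathepsin probe sets. The points of Ctss and Ctsz lie near 0.50 and 0.46, and the other 9 between -0.04 and 0.13 with intervals across 0.

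Within an age, mice with more Ctss tended to have a higher signal of the brightest Ctsb probe set. Over 14 mice of 15 months Pearson's r was 0.69 (permutation p = 0.00591, adjusted p = 0.0512) and Spearman's rho 0.56 (permutation p = 0.0385, adjusted p = 0.269). Over 9 mice of 2 months r was 0.82 (exact permutation p = 0.00732, adjusted p = 0.0512) and rho 0.90 (exact permutation p = 0.00203, adjusted p = 0.0284). All of these tests were two-sided and adjusted over 14 relations, 7 genes in each age, so only the rank correlation at 2 months passed. Adjusted over 12 relations, without the Ctse pair of doubtful target (a choice made after seeing the data), r also passed at both ages (permutation test, adjusted p = 0.0439 each), and rho at 15 months did not (adjusted p = 0.231). Without the 2 mice farthest from the median of Ctss, r was 0.57 at both ages. Without the 4 arrays whose 99th percentile was lowest, a setting planned for the comparison of ages and applied to the correlations after seeing the data, r was 0.73 over 12 mice of 15 months and 0.82 over 7 mice of 2 months. The relation was not shared by the other Ctsb probe sets, whose r with Ctss over 23 age-centred values was -0.13 for 92256_at and -0.11 for 95608_at. The brightest probe set itself had an r of 0.10 and -0.14 with these.

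**Figure D4:**
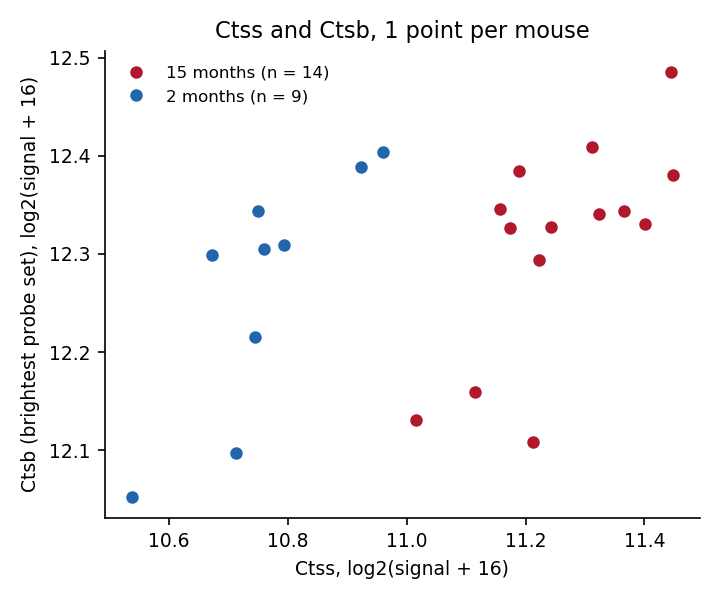
Ctss against the brightest probe set of Ctsb, both as log2(signal + 16), with 1 point per mouse and the ages in separate colours. Points rise together within each age (r = 0.69 at 15 months, r = 0.82 at 2 months), while the 15-month cloud is shifted to higher Ctss.

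No correlation of Ctss with Ctsz was detected within an age. Their r was -0.10 over 14 mice of 15 months (permutation p = 0.745, adjusted p = 0.976) and 0.32 over 9 mice of 2 months (exact permutation p = 0.412, adjusted p = 0.976). Without the 2 mice farthest from the median of Ctss it was -0.41 at 15 months and -0.03 at 2 months. Ctsh had an r of 0.39 with Ctss at 15 months (permutation p = 0.165, adjusted p = 0.576) and of 0.70 at 2 months (exact permutation p = 0.0351, adjusted p = 0.164). These values depended on the mice included: without the 2 mice farthest from the median of Ctss r was 0.03 at 15 months and 0.46 at 2 months, whereas leaving out the 4 arrays named above gave 0.72 at 15 months and 0.83 at 2 months.

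The genes most like 4 of the members in their age-centred pattern over 23 mice, given as a description, were found by Pearson's r. For Ctss they were Ctsb (r = 0.74), Zbtb20 (0.73), Selplg (0.72), Lct (0.71) and Prkce (0.70). For Ctsz they were Tmed3 (0.76), Ap3d1 (0.73), Pepd (0.70), Mcl1 (0.70) and Srsf4 (0.70), of which Ap3d1 encodes a subunit of an adaptor complex that sorts cargo to lysosomes. For Ctsb they were Sh3gl1 (0.76), Rps28 (0.74), Ctss (0.74), Arhgap39 (0.72) and Smyd2 (0.72). For Ctsd they were Myl12b (0.67), 2 probe sets of Basp1 (0.67 and 0.66), Norad (0.67) and Aldoa (0.66). None of these other than Ctss was called between the ages, and probe sets on the same arrays share array-wide variation.

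Other members of the protease family and their inhibitors were not called. Among all genes 0.423% were called and 12.4% had an unadjusted p under 0.05, so that a count of 0 called does not set lists of this size apart. Of 13 other cathepsins 5 were on the array and 2 bright enough, and neither passed the limma test. The shares are over 5680 genes, each by its brightest probe set. Ctsa, a serine carboxypeptidase that protects lysosomal enzymes, had means of 920.8 ± 79.5 at 15 months and 882.6 ± 82 at 2 months (adjusted p = 0.719). Ctsf, a cysteine cathepsin, had means of 1155 ± 111.7 in mice of 15 months and 1205 ± 171 in those of 2 months (adjusted p = 0.796). Of the 4 tested inhibitors of cysteine proteases and related genes 0 were called, and 0 had an unadjusted p under 0.05. Cst3, the secreted cystatin C, had means of 11760 ± 1668 at 15 months and 11340 ± 1420 at 2 months (log2 difference 0.05, adjusted p = 0.842). The difference was 0.14 in a second probe set of Cst3 (adjusted p = 0.504). Cstb, the intracellular cystatin B, averaged 1713 ± 119.6 in mice of 15 months and 1678 ± 149.1 in those of 2 months (adjusted p = 0.841), and the member of lowest p was Serpinb6a (0.07, adjusted p = 0.706).

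A list for cathepsin activation and sorting also holds genes of lysosomal membrane proteins. Of its 11 tested genes 0 were called, where 0.423% of all genes were. An unadjusted p under 0.05 was found for 0 of the 11, where 12.4% of all genes had one. The median log2 change of the 11 was 0.03. Lgmn, the asparaginyl protease legumain that processes several cathepsins, had the lowest p, with 711.3 ± 104 at 15 months and 631.3 ± 143.2 at 2 months (log2 difference 0.19 ± 0.10, SE, adjusted p = 0.480). Psap, the precursor of the saposins and a carrier of cathepsin D, averaged 7766 ± 975.8 in mice of 15 months and 7607 ± 891.7 in those of 2 months (adjusted p = 0.904), and its other probe sets differed by 0.06 and -0.13. The mannose 6-phosphate receptor gene Igf2r had a difference of 0.00. Of 18 other lysosomal hydrolases, a list that also holds Lgmn, 0 were called, 0 had an unadjusted p under 0.05, 9 had changes above 0 and the median was -0.01, against -0.01 for all genes. The member of lowest p was Naglu, which acts on heparan sulfate, with a difference of 0.17 (adjusted p = 0.463).

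The invariant chain and MHC class II genes, whose loading cathepsin S serves, were mostly dim or variable in this tissue. Of 10 on the array 4 were tested and 0 called, where 0.423% of all genes were. An unadjusted p under 0.05 was found for 0 of the 4, where 12.4% of all genes had one. Counts of 0 do not set a list of 4 genes apart from these shares. Cd74, the invariant chain, was at 228.4 ± 87 at 15 months and 206.5 ± 75 at 2 months (log2 difference 0.15, adjusted p = 0.815). The member of lowest p was H2-Eb1, a class II beta chain, at 169.4 ± 93.9 at 15 months and 110.9 ± 58.5 at 2 months (log2 difference 0.47 ± 0.32, SE, adjusted p = 0.553). Its estimate was of the size of that of Ctss but its SE was much larger. H2-DMa was neither dim nor variable, at 995.5 ± 112.9 at 15 months and 997 ± 94.9 at 2 months. Its log2 difference was -0.0047 (95% interval -0.14 to 0.13, limma adjusted p = 0.984).

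Some microglia and macrophage markers were called higher at 15 months as well. The list was chosen with earlier results of these data known, which limits what its shares can show. Of 30 on the list 26 were on the array and 18 tested. Of these 4 were called higher and 0 lower, where 0.37% of all genes were called higher. Changes were above 0 in 17 of the 18, against 45.8% of all genes, with a median of 0.18. An unadjusted p under 0.05 was found for 9 of the 18, against 12.4% of all genes. These 9 include Coro1a, the only marker with a change below 0 (-0.20, limma p = 0.0151, adjusted p = 0.282). The 4 called higher were Ly86 and Mpeg1, of innate immune cells, and the C1q chains C1qb and C1qc. The others included Tyrobp, an adaptor of myeloid receptors (log2 difference 0.26, adjusted p = 0.179), and Aif1, the calcium-binding protein Iba1 (0.48, adjusted p = 0.258). Csf1r and Cx3cr1, receptors that define microglia, had differences of 0.01 each (adjusted p = 0.954 and 0.990), and a dimmer probe set of Csf1r had one of 0.34 (adjusted p = 0.504). A dimmer probe set of C1qb had one of 0.00 (adjusted p = 0.992). The mean log2 level of the 18 markers was 8.90 to 9.15 at 15 months and 8.67 to 8.91 at 2 months. With this mean as a covariate the log2 change of Ctss was 0.21 ± 0.08 (SE; limma p = 0.0123, adjusted p = 0.508) and that of Ctsz 0.25 ± 0.19 (adjusted p = 0.788). In that fit 1 probe set of all tested was called, the covariate itself differing between the ages. The part of microglial number in the change of Ctss was not tested.

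**Figure D5:**
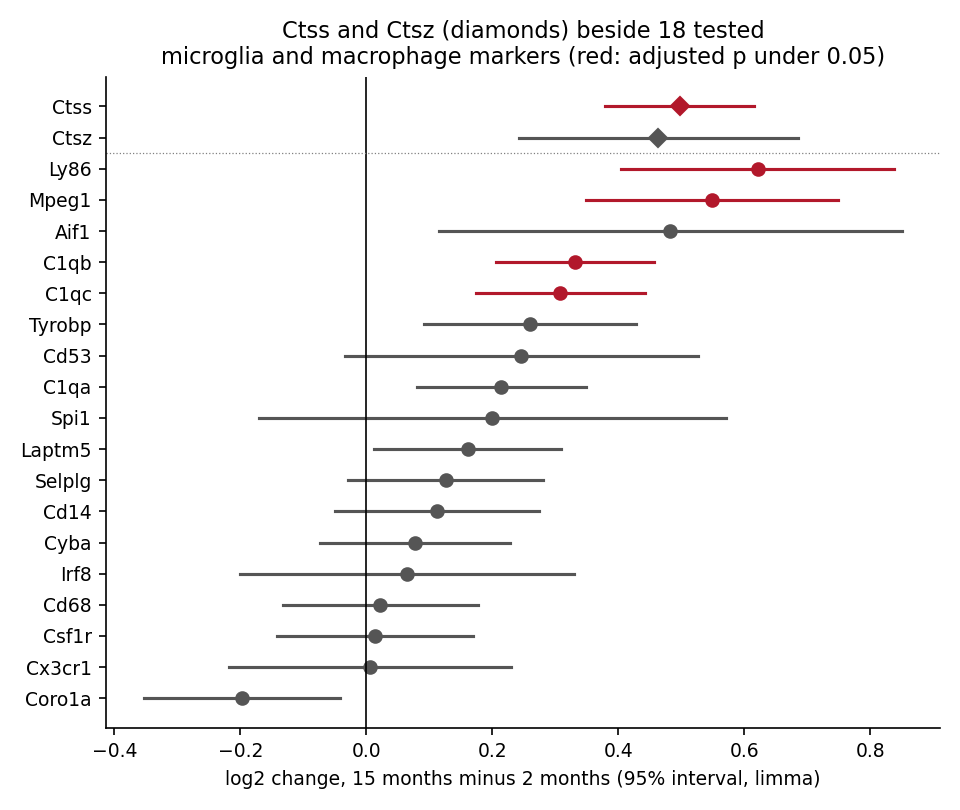
Log2 change, 15 months minus 2 months, with 95% intervals of the limma fit for Ctss and Ctsz (diamonds) and 18 tested microglia and macrophage markers (circles), those called in red. Csf1r and Cx3cr1 sit at 0.01 while Ly86 and Mpeg1 lie at 0.62 and 0.55, on the far side of Ctss at 0.50.

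Of the other cell type lists, 1 of 7 astrocyte markers was called, S100b (log2 change 0.43, adjusted p = 0.0128), where 0.423% of all genes were. Changes were above 0 in 6 of the 7, against 45.8% of all genes, with a median of 0.18. This list, too, was chosen with earlier results of these data known. An unadjusted p under 0.05 was found for 3 of the 7, against 12.4% of all genes. The marker with a change below 0 was Aqp4 (-0.15, limma adjusted p = 0.541). Gfap, the filament protein of astrocytes, had a log2 difference of 0.45 (adjusted p = 0.0851). The mean log2 level of the 7 was 10.40 to 10.87 at 15 months and 10.32 to 10.64 at 2 months, and the part of astrocytes in the cathepsin results was not tested. None was called of 11 neuron, 6 hippocampal field, 6 oligodendrocyte, 9 endothelial and pericyte, 3 choroid plexus, 11 meningeal and fibroblast and 3 blood and neutrophil markers, whose members of lowest p had adjusted p between 0.214 and 0.506. In the limma test these members were Stmn2 (-0.11), Calb1 (-0.17), Mog (-0.23), Cdh5 (0.48), Folr1 (0.77), Bmp6 (0.62) and Camp (-0.48). Changes above 0 were found in 5 of 11 neuron, 1 of 6 hippocampal field and 2 of 6 oligodendrocyte markers. The share was 4 of 9 for endothelial and pericyte markers and 3 of 3 for choroid plexus markers. It was 8 of 11 for meningeal and fibroblast markers and 1 of 3 for blood and neutrophil markers, against 45.8% of all genes. The medians ran from -0.16 for hippocampal field to 0.77 for choroid plexus markers. The part of these lists in the cathepsin results was not tested. The median of the 11 meningeal and fibroblast markers was 0.20, while Ctsk, which fibroblasts make, differed by -0.03.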

How the data were processed

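The files held 1 table of 23 arrays from 14 mice of 15 months and 9 mice of 2 months, grouped by the age in the labels. Replicate numbers name mice within an age and pair none. The labels call the samples biological replicates and give no batch. The authors deposited linear intensities, for which the submitters' processing notes name MAS5 (its settings: not given in the sources used here). On every array the mean of the signals after trimming 2% at both ends was 500.3, so no further scaling was applied. Names are those of the platform annotation, in which every member symbol matched RefSeq of GRCm38.p6. Tests used log2(signal + 16), and fold changes of dim genes are understated. Of 12422 non-control probe sets, those with a mean above the 40th percentile, a signal of 91.7, were tested: 7453, standing for 5680 genes.

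The ages were compared, 15 months minus 2 months, with limma 3.58.1 in R 4.3.3 (eBayes, trend and robust options), as a two-sided test adjusted by Benjamini-Hochberg over all probe sets tested. The test was tried on simulated data first. For lists, the brightest probe set stood for a gene. Correlations used 100000 permutations, or all of them at n = 9 (numpy 2.4.6, Python 3.11.15). All member probe sets are named, and of other lists the genes called, the member of lowest p and Cst3, Cstb, Cd74, Lgmn and Psap. Csf1r, Cx3cr1, Tyrobp, Aif1, Coro1a, Gfap, Aqp4, H2-DMa, Igf2r, the markers of the tissue check and second probe sets were chosen after their values were seen. For Ctss, Ctsz, Ctsb and Ctsd the 5 tested probe sets of highest age-centred r are named. The members and lists were chosen with earlier results of these data known. The alternatives were other pseudocounts (1 and 64), filters, scalings, variance models, array weights, covariates, a rank test and leaving out arrays.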

Additional observations from a re-analysis of the deposited data

How the results depend on the processing

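The call of Ctss kept its direction and its side of the threshold in 11 of 12 settings other than leaving out mice, with log2 changes of 0.21 to 0.52, and in all 23 in which 1 mouse was left out (0.47 to 0.52). The exception was the fit with the microglia marker mean as covariate (0.21, adjusted p = 0.508), in which 0 cathepsin probe sets and 1 probe set of all were called, against 1 and 28 in the fit as reported. The covariate itself differed between the ages. The log2 change of Ctsz, not called as reported, passed in 7 settings: 0.39 with a pseudocount of 64 (adjusted p = 0.0470), 0.48 with quantile normalisation (0.0431), 0.49 with median centring (0.0480), 0.46 without trend or robust variance (0.0455), 0.47 with array quality weights (0.0253), 0.44 with the 25th percentile of the array as covariate (0.0475) and 0.55 when the 4 arrays whose 99th percentile was lowest were left out (0.0215). In these 7 settings 2 cathepsin probe sets were called, and 61 probe sets of all in that with the 25th percentile. Ctsz stayed above the threshold with a pseudocount of 1 (0.0527), no filter (0.0800), the Mann-Whitney test (0.0815) and the microglia covariate (0.788), and fell under the brightness filter at the 60th percentile. Leaving out 1 mouse gave Ctsz log2 changes of 0.40 to 0.52 and adjusted p of 0.0114 to 0.132. The mice whose omission let it pass were replicates 6 and 13 of 15 months and 7, 8 and 9 of 2 months, so that 1 to 2 cathepsin probe sets and 20 to 39 probe sets of all were called. The other 9 tested cathepsin probe sets passed in no setting. No paired analysis was possible because the mice carry no shared numbers between the ages. The dim probe sets of Ctsc, Ctsb and Ctse were left out of the test for low signal, and detection calls were not used here. The causes of these shifts were not tested.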
